A study of Mus musculus with 5 samples.

Results

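The genes described here encode the proteasome of the mouse: its subunits, its activators and inhibitor, and the chaperones that assemble it. They were the genes of the expression table whose symbol is Psm followed by a letter from a to g and a number, which gave 48 of 21801 genes. The same start of the name also occurs in Psmc3ip, a recombination factor, and in Psme2b, a close copy of Psme2, and neither is a member. RNA was measured by sequencing in 5 libraries of 1 group, the neuroepithelial cells (NECs) purified from the mouse, which are the dividing progenitors that line the early neural tube and precede the radial glia of the neocortex. The labels class the cells as neural progenitors and give no strain, genotype, age, treatment or sorting method. The labels number the libraries as replicates 1 to 5 without saying that they came from separate animals, so the p-values below reflect no more than how these libraries varied, and that spread may be technical. With 1 group there was no condition to compare, and the comparisons were between the proteasome's own parts, within each library and over the 5 libraries.

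The proteasome degrades proteins that carry ubiquitin. Its core particle is a barrel of stacked rings, outer rings of alpha subunits that form the gate and inner rings of beta subunits, 3 of which cut proteins. A regulatory cap sits on the barrel, made of a base with a ring of ATPases that unfolds the substrate and a lid that removes its ubiquitin. Cells exposed to interferon, and many immune cells, replace the cutting subunits Psmb6, Psmb7 and Psmb5 by Psmb9, Psmb10 and Psmb8, which form the immunoproteasome and favour peptides for presentation on class I molecules. Within the core particle each kind of alpha and beta subunit is present in the same number, within a cap each subunit is usually present once, and dedicated chaperones join them. Dividing progenitors depend on the proteasome to remove cyclins and other regulators of the cell cycle.

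The replacement of catalytic subunits gives pairs of genes that make the same part of the barrel, and the sequence before their start sites is shown to set the constitutive genes beside their immunoproteasome counterparts. Windows of 250 bases before the RefSeq start, on the build GRCm38.p6, were found for 40 of the 48 members, as 43 windows, and Psma8, Psmb1, Psmb2, Psmb7, Psmc3, Psmd3, Psmd7 and Psmg2 had none. Capitals mark letters of the 6 motifs searched on both strands: the CCAAT box (CCAAT), the core of the antioxidant response element read by Nrf1 and Nrf2 (TGACNNNGC), an ETS site (CCGGAAG), the interferon-stimulated response element, as the pair of its GAAA repeats spaced by any NN, the gamma activation site (TTCNNNGAA) and the TATA box (TATAAA). The first pair is Psmb5, at chr14:54617996-54618245 on the minus strand, and Psmb8, at chr17:34197945-34198194 on the plus strand.
Psmb5: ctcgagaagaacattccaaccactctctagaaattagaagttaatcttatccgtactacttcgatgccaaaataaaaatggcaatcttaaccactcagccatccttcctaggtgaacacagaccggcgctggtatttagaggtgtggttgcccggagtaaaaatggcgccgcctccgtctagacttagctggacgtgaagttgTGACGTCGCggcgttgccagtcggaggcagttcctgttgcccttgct
Psmb8: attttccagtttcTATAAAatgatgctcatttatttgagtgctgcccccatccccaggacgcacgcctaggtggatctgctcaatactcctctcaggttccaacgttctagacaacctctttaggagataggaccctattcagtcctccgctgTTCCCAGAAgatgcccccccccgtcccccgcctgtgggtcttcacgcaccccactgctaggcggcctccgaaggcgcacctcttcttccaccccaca
The Psmb5 window holds TGACNNNGC with its first base 47 bases before the start, and the Psmb8 window holds TTCNNNGAA 97 bases before and TATAAA 237 bases before the start. The second pair is Psmb6, at chr11:70525107-70525356 on the plus strand, and Psmb9, at chr17:34187331-34187580 on the minus strand.
Psmb6: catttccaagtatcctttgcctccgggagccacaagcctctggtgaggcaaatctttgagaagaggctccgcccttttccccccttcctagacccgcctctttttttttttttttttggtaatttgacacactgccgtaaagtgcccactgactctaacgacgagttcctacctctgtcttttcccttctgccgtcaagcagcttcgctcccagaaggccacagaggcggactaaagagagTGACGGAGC
Psmb9: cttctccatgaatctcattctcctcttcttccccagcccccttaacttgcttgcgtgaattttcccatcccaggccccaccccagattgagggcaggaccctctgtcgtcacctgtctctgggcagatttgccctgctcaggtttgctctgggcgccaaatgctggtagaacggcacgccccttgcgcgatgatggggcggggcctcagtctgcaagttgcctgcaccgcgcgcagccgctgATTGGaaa
Psmb6 holds TGACNNNGC 9 bases before its start, and Psmb9 holds CCAAT, on the other strand, 8 bases before its start. The third immunoproteasome gene is Psmb10, at chr8:105938393-105938642 on the minus strand, whose window holds none of the 6 motifs.
Psmb10: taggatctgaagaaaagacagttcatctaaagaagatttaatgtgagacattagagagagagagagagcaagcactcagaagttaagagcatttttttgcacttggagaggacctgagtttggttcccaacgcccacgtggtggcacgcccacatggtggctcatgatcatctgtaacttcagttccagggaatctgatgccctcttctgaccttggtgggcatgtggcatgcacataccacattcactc
Of the 3 immunoproteasome windows none holds TGACNNNGC, and both constitutive windows do. The Psmb8 and Psmb9 windows lie wholly inside these genes as annotated by GENCODE. They do not cover the sequence before the starts given there. Over all members TGACNNNGC lay in 5 of 43 windows (11.6%; Psmb5, Psmb6, Psmc6, Psmd12 and Psmd9), against 10.2% of all 32851 mouse windows, and CCAAT in 14 (32.6%, against 33.8%).

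The ETS site had the widest gap between the shares. It lay in 13 of 43 windows, before 12 genes, a share of 30.2% against 6.91% of all windows, and it was in 4 of 6 base ATPase windows (3 genes, Psmc2 having 2 windows), 2 of 3 other base, 3 of 6 lid, 2 of 5 activator, 1 of 3 core chaperone and 1 of 8 alpha ring windows. It was in 0 of 2 noncatalytic and 0 of 2 catalytic beta, 0 of 3 immunoproteasome and 0 of 3 base chaperone windows, and in neither the Psmf1 nor the Psmb11 window. The windows of Psmc6, an ATPase of the base, at chr14:45329574-45329823, and of Psmd11, the lid subunit with the highest level, at chr11:80428365-80428614, both on the plus strand, show where these letters lie.
Psmc6: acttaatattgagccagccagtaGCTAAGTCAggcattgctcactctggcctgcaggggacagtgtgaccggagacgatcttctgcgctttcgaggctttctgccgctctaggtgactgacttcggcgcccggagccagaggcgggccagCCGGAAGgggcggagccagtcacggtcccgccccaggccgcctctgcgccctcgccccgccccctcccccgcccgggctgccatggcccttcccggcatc
Psmd11: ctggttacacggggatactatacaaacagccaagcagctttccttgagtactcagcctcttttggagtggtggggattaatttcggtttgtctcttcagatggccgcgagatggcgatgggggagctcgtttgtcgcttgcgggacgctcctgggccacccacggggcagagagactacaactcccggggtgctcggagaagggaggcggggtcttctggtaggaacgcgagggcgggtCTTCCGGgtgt
In Psmc6 the site begins 100 bases before the start, with TGACNNNGC on the other strand 227 bases before it, and in Psmd11 it begins 11 bases before the start, on the other strand. The member windows had a median of 14 CpG against 6 over all windows and a median GC content of 57.6% against 52.4%, so their base composition differs from that of the windows they were set beside. The remaining motifs were rare: the interferon-stimulated response element lay in 3 windows (6.98% against 2.98%; Psmb3, Psmd4 and Psmd9), TTCNNNGAA in 2 (4.65% against 7.02%; Psmb8 and Psmg1) and TATAAA in 4 (9.30% against 12.4%; Psmb4, Psmb8, Psmd1 and Psmd6). These matches are descriptions of the letters in the windows and show no binding.

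Levels are given in FPKM, the fragments per 1000 bases of transcript and 1000000 mapped reads, so they are per length. Comparisons between genes also carry differences that length does not remove, such as uneven amplification and shared sequence. The deposited values summed to 747034 to 847625 FPKM per library, with 16275 to 18456 genes above 0, and correlated across genes with Pearson's r of 0.990 to 0.997 over the 10 pairs of libraries, none of which were identical. Steps between low values implied totals of 20.6 to 28.3 M reads (1 M is 1000000), and a 2000-base transcript at 1 FPKM would rest on about 37.1 to 51.0 reads. Actb, Eef1a1 and Pkm, used by nearly all cells, were listed at 0 in every library, so a 0 may stem from an estimate that failed, and genes at 0 are called listed at 0. Of the 9 neuroepithelial markers, 8 passed the test above 1 FPKM, among them Sox2 (11.6 ± 1.72 FPKM, SD, n = 5) and Pax6 (64.6 ± 7.64), with a summed level of 247 to 294 FPKM. Among all tested genes 52.3% passed above 1 FPKM. Markers of other cells were present too: 7 of 8 for mesenchyme (summed 32.2 to 126 FPKM), 5 of 6 for surface ectoderm (109 to 163), 4 of 5 for neurons (64.1 to 110), 2 of 8 for blood cells (4.72 to 6.17, with Aif1 and Tyrobp listed at 0 throughout), 1 of 6 for endothelium (5.08 to 8.15) and 0 of 8 for erythroid cells (2.05 to 7.04, with Hbb-bt and Hbb-bs listed at 0 throughout).

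The proteasome genes were among the abundant transcripts of these cells. Together they made up 1.87% to 2.00% of the FPKM of a library, and the median member stood at 232 FPKM, against 1.79 FPKM over the 19706 genes above 0 in at least 1 library. Among all genes 23 members were in the top 500 and 29 in the top 1000. Each gene was tested against levels of 1, 10 and 100 FPKM with limma on log2(FPKM + 1), with a Benjamini-Hochberg adjusted p under 0.05 over the 19706 genes. Of the 48 members 47 were tested and Psmb8 was listed at 0 throughout. 44 of the 47 passed above 1 FPKM, where 52.3% of all tested genes passed, and 3 passed below it, where 41.4% of all did. Above 10 FPKM stood 43 members (27.7% of all genes) and below it 4 (68.4% of all). Above 100 FPKM stood 34 members (6.80% of all) and below it 12 (92.0% of all), and Psmd5, at 94.1 ± 10.2 FPKM, was on neither side (adjusted p = 0.174). The members below 1 FPKM were Psmb9, Psmb11 and Psma8, and Psmd3 joined them below 10 FPKM. A total of 14 members share runs of 75 bases, the read length, with other transcripts, at over 10% of positions for Psme2 (51.7%, with Psme2b), Psmb5 (40.0%), Psma5 (39.8%), Psmb3 (33.1%), Psma3 (21.3%), Psmg3 (20.3%), Psmd2 (15.1%) and Psma4 (12.9%), so the levels of these 8 genes are uncertain.

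**Figure D1:**
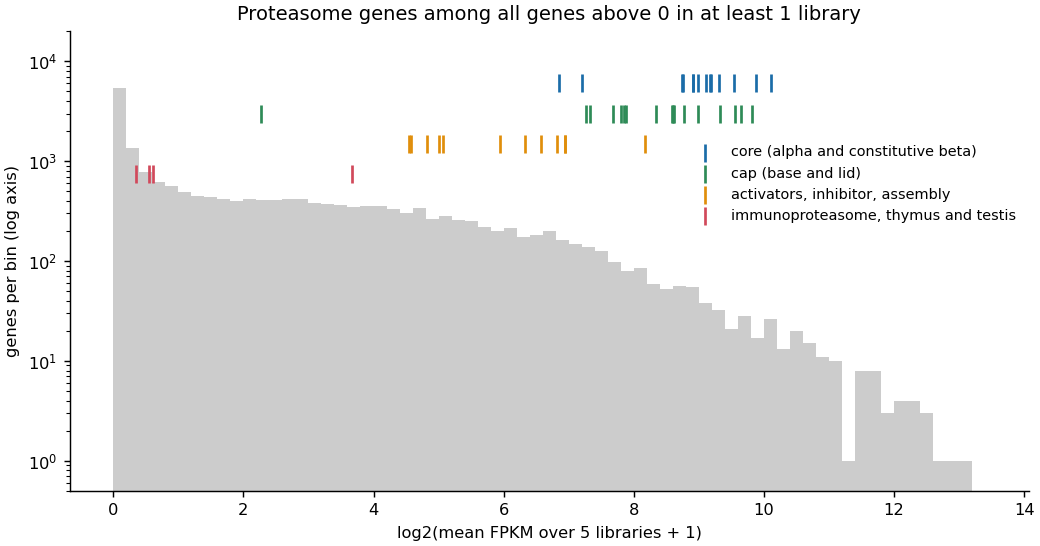
Histogram of the mean level of the 19706 tested genes, on the scale log2(mean FPKM over 5 libraries + 1), with the number of genes per bin on a log axis; tick marks show the proteasome genes by kind. Nearly all core and cap subunits stand at the right of the distribution, where 6.80% of genes passed above 100 FPKM, and the low marks are the immunoproteasome, thymus and testis subunits and Psmd3.

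The 7 alpha subunits, which form the outer rings and the gate, all passed above 100 FPKM and lay close together. Psma7 was the highest, at 895, 904, 968, 972 and 954 FPKM in replicates 1 to 5 (938 ± 36.3), and Psma4 the lowest, at 366, 419, 445, 487 and 449 FPKM (433 ± 44.8). The 2 genes did not overlap, and Psma7 was above Psma4 by 1.99 to 2.45 times in the 5 libraries. Between them came Psma3 (741 ± 64.5 FPKM), Psma6 (583 ± 56.0), Psma2 (507 ± 47.8), Psma1 (481 ± 59.9) and Psma5 (480.4 ± 54.7). In this order the ranges of Psma7, Psma3 and Psma6 were separate, while from Psma6 downward each gene's range overlapped that of the next. Psma1 and Psma5 changed places between libraries, Psma1 being higher in 3 of 5, and every other neighbour kept its place in 5 of 5.

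The beta subunits spread further than the alpha subunits. Among those that do not cut, Psmb3 was the highest, at 568.1, 620, 643, 688 and 663 FPKM (636 ± 45.6), followed by Psmb2 (578 ± 51.4) and Psmb1 (551 ± 45.1). Psmb4, the subunit at the end of the ring's assembly order in yeast and mammals, stood apart at 115, 107, 140, 99.8 and 112 FPKM (115 ± 15.1). All 5 Psmb4 values lay far below the lowest of Psmb1, and its call above 100 FPKM was narrow (adjusted p = 0.0288) and was lost without replicate 1, 3 or 5 and when genes listed at 0 in every library were kept in the test. Psmb4 lies on chromosome 3 (94884093 to 94886961, mm10), and none of its runs of 75 bases occur in another transcript.

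The 3 constitutive catalytic subunits were ordered the same way in every library, with no overlap of their ranges. Psmb6, with caspase-like activity, was at 1018, 1103, 1091, 1186 and 1122 FPKM (1104 ± 60.2), the highest mean of the 48 members. Psmb7, with trypsin-like activity, was at 361, 402, 435, 479.9 and 449 FPKM (425 ± 45.6). Psmb5, with chymotrypsin-like activity and the main target of proteasome inhibitors used as drugs, was at 157, 139.8, 149.9, 143 and 146 FPKM (147 ± 6.44). The level of Psmb5 is uncertain, since 40.0% of its runs of 75 bases occur in other transcripts. Psmb6 and Psmb7 share none. With Psmb5 as listed, the catalytic genes alone spanned most of the range of the core particle. The highest gene of the core was 7.81 to 11.9 times its lowest within a library. The median of the alpha ring was below that of the beta ring by a log2 difference of 0.12 ± 0.04 (SD, n = 5) in 5 of 5 libraries, and with the mean of the members in place of the median it was above it by 0.52. Likewise the noncatalytic median was above the catalytic median by 0.41 ± 0.04 in 5 of 5 libraries, and the difference of means was -0.073, so neither contrast has a direction that holds for both summaries.

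**Figure D2:**
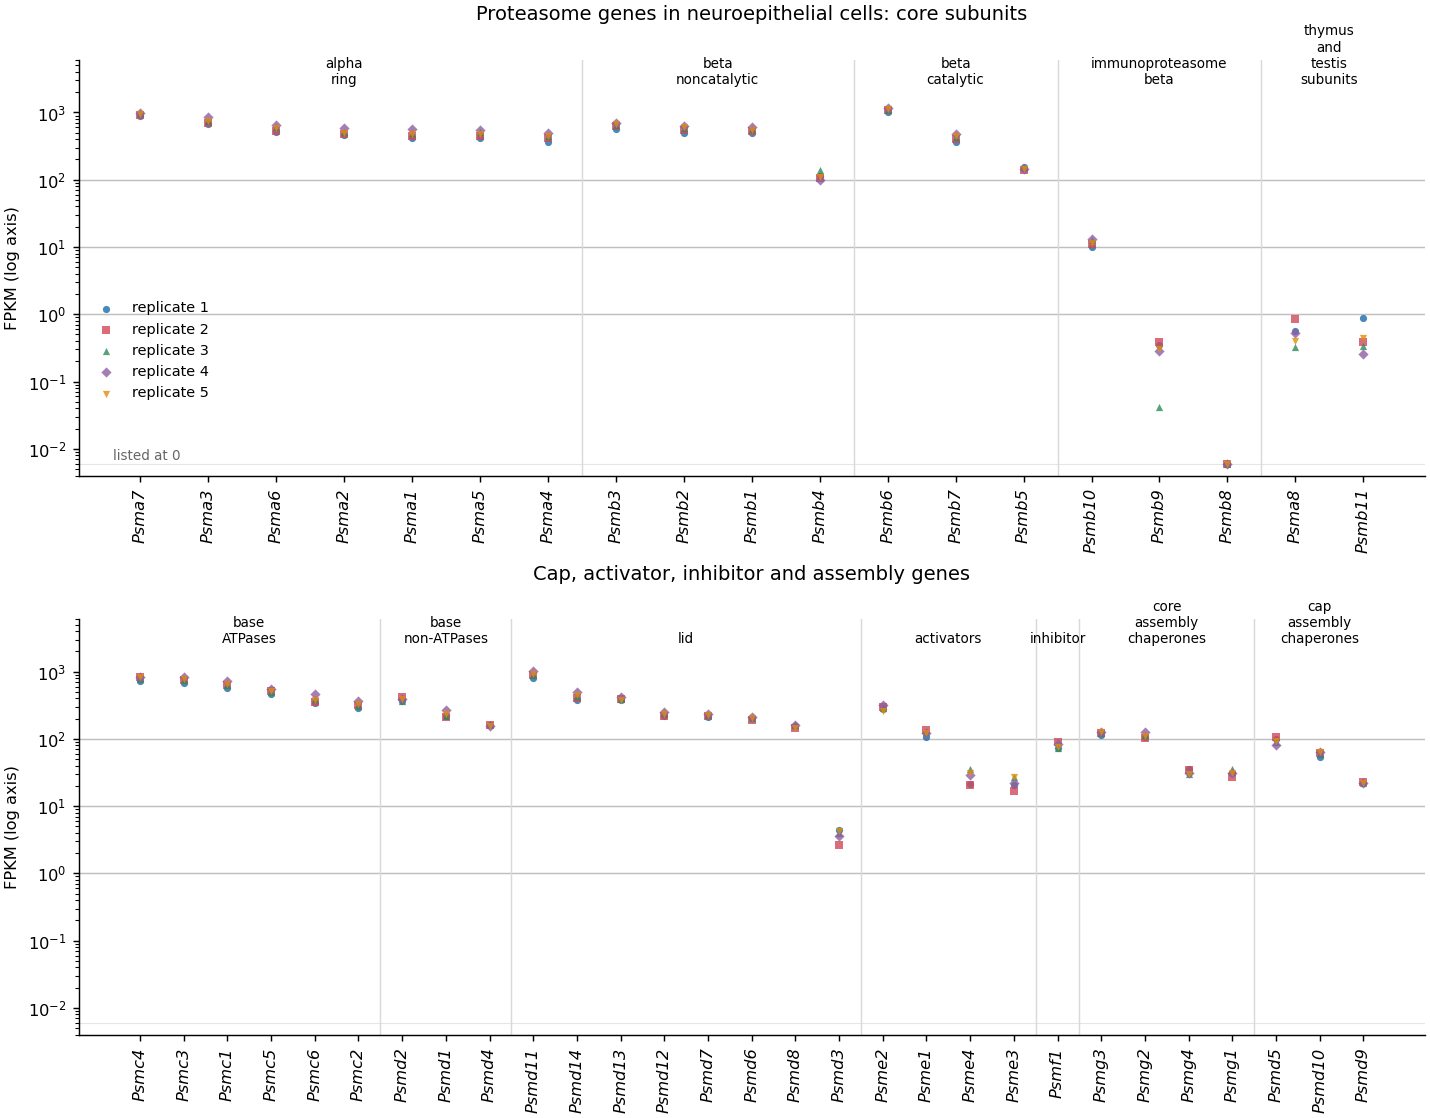
FPKM of the 48 proteasome genes on a log axis, with core subunits in the upper panel and cap, activator, inhibitor and assembly genes in the lower; each symbol is 1 of the 5 libraries, genes are grouped by role, and values listed at 0 are drawn at the bottom. Most core and cap subunits stand above 100 FPKM in every library, while Psmb9, Psmb11, Psma8 and Psmd3 stand below 5 FPKM in every library, and Psmb8 is listed at 0.

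Of the immunoproteasome subunits, Psmb9 and Psmb10 stood far below the constitutive catalytic genes, and the level of Psmb8 is not known from its listed 0. Psmb8 was listed at 0 in all 5 libraries. Psmb9 was at 0.345, 0.393, 0.0421, 0.280 and 0.302 FPKM (0.273 ± 0.136), below 1 FPKM by 0.66 on the log2 scale (SE 0.06, limma adjusted p = 1.72e-05). Replicate 3 was the lowest for Psmb9, where the value rests on about 1.0 read, against 8.1 to 11.8 reads elsewhere. Psmb10 was at 10.02, 11.1, 12.9, 13.2 and 11.5 FPKM (11.7 ± 1.32), above 1 FPKM by 2.67 on the log2 scale (limma adjusted p = 5.18e-09). Its call above 10 FPKM (adjusted p = 0.0216) was lost without replicate 3, 4 or 5. In bulk RNA, a low level in all cells and a higher level in a few cells cannot be told apart.

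**Figure D3:**
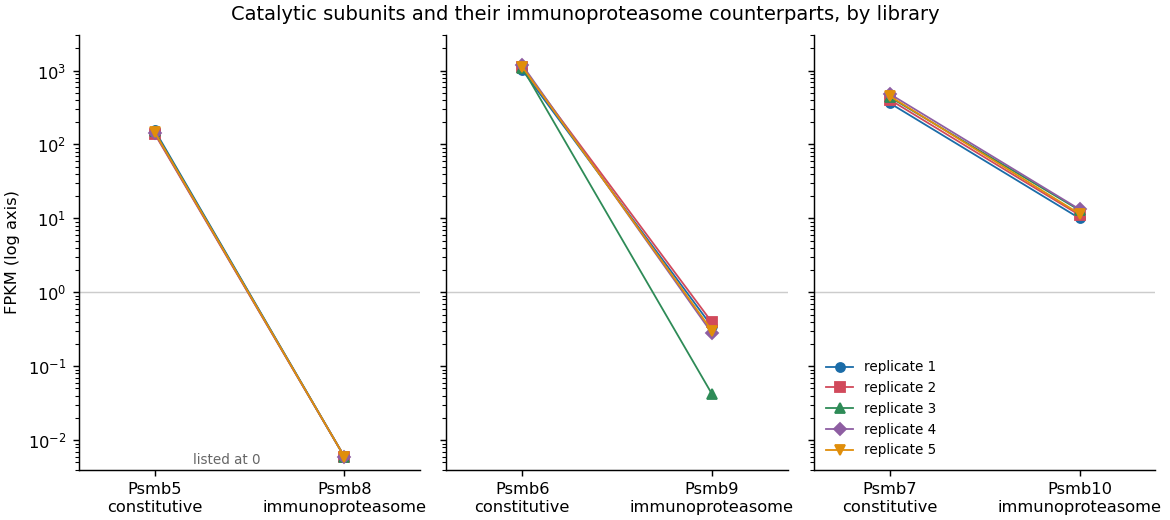
FPKM on a log axis of each constitutive catalytic subunit (left) and its immunoproteasome counterpart (right), joined by a line for each of the 5 libraries; Psmb8 is listed at 0 and drawn at the bottom. Every library is lower for Psmb9 than for Psmb6 and for Psmb10 than for Psmb7, and the lines to Psmb8 show only where it is listed.

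Within every library Psmb6 and Psmb7 were above their counterparts Psmb9 and Psmb10. Psmb6 exceeded Psmb9 by 9.77 ± 0.19 on the log2(FPKM + 1) scale, in 5 of 5 libraries. The gap from Psmb7 to Psmb10 was 5.06 ± 0.07, also in 5 of 5 libraries, and Psmb7 was 33.8 to 39.0 times Psmb10 in FPKM. For Psmb5 and Psmb8 no fold is given, since Psmb8 was listed at 0. As with each of the 14 gene pairs compared here, flipping the signs of the 5 differences, an exact two-sided permutation test, returned p = 0.062 before and after adjustment, the smallest that 5 libraries allow, so no pair could pass 0.05. Psmb9 and Psmb10 made up 0.670%, 0.692%, 0.765%, 0.742% and 0.684% of the summed FPKM of the 6 catalytic subunits (0.711% ± 0.0406). Psmb10 alone gave 96.6% to 99.7% of that share, and both shares count Psmb8 at its listed 0, so they leave its part unknown. With Psmb8 at its listed 0, which makes Psmb9 the median, the median of the catalytic group was above the immunoproteasome median by 8.39 ± 0.26 on the log2 scale, in each of the 5 libraries, and by 5.06 over members of at least 1 FPKM, where only Psmb10 stands for the immunoproteasome.

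Psmb8 and Psmb9 lie 9956 bases apart in the class II region of the major histocompatibility complex on chromosome 17 (34197721 to 34201454 and 34181987 to 34187764), and Psmb10 lies on chromosome 8 (105935735 to 105938444). Psmb9 overlaps Tap1, a subunit of the transporter that carries peptides to class I molecules, on the opposite strand, and since the protocols do not state that strand was kept, reads of the overlap cannot be told apart. Tap1 was at 1.05, 2.33, 1.57, 0.628 and 0.891 FPKM (1.29 ± 0.674) and passed on neither side of 1 FPKM. The library with the most Tap1, replicate 2, also had the most Psmb9, though replicate 4 had the least Tap1 and not the least Psmb9. The starts of Psmb8 and Psmb9 in the GENCODE annotation are further upstream than the RefSeq starts, so the windows above lie inside both genes.

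The other genes of antigen presentation and interferon signalling formed a graded series of levels. Of 14 listed genes, 10 passed above 1 FPKM, 2 passed below it (Tap2 and Nlrc5) and 2 passed on neither side (Tap1 and Stat2), and 3 passed above 100 FPKM. Among all tested genes 52.3% passed above 1 FPKM, 41.4% below it and 6.80% above 100 FPKM. The highest was Calr, a chaperone of the endoplasmic reticulum that is used by many glycoproteins, at 564, 682, 691, 713 and 719 FPKM (674 ± 63.6). The lowest was Tap2, the partner of Tap1, at 0.0135, 0.0353, 0.0299, 0.0326 and 0.0133 FPKM, levels that rest on very few reads at these depths. B2m, the light chain of class I molecules, was at 61.1 ± 7.53 FPKM. Nlrc5, the activator of class I genes, was listed at 0 in replicate 1 and at 0.0231 to 0.223 FPKM in the others. The list's median was 3.44 FPKM, against 1.79 FPKM over all tested genes.

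**Figure D4:**
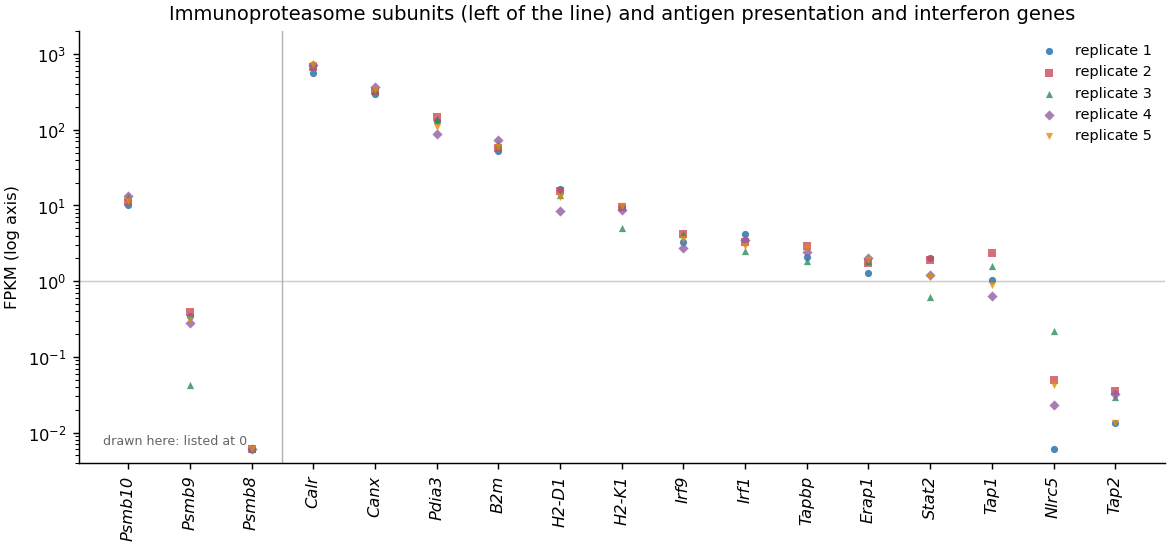
FPKM on a log axis of the 3 immunoproteasome subunits (left of the line) and the 14 genes of antigen presentation and interferon signalling; each symbol is 1 of the 5 libraries and values listed at 0 are drawn at the bottom. Psmb10 is at 10.02 to 13.2 FPKM while Psmb9, Tap2 and Nlrc5 stay below 1 FPKM in every library.

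The subunits known from thymus and testis were scarce. Psmb11, which replaces Psmb5 in the epithelium of the thymus cortex, was at 0.875, 0.387, 0.335, 0.253 and 0.449 FPKM (0.460 ± 0.243), below 1 FPKM (limma adjusted p = 0.000894). Psma8, which replaces Psma7 in germ cells of the testis, was at 0.557, 0.844, 0.325, 0.519 and 0.406 FPKM (0.530 ± 0.198), also below 1 FPKM (limma adjusted p = 0.00103). Psmb11 was highest in replicate 1 and Psma8 in replicate 2, and the ranges of the 2 genes overlapped. Both genes were detected in every library. With their longest coding transcripts, of 4247 and 1692 bases, these levels imply about 28.0 to 80.9 reads for Psmb11 and 10 to 33.0 for Psma8. A shorter transcript would imply fewer reads. Psmb5 exceeded Psmb11 by 6.68 ± 0.18 and Psma7 exceeded Psma8 by 9.27 ± 0.22 on the log2(FPKM + 1) scale, each in 5 of 5 libraries. Psmb11 lies 3410 bases from Psmb5 on chromosome 14, and Psmb5 was 376 ± 144 times Psmb11 in FPKM. The ratio carries the uncertainty of Psmb5, whose runs of 75 bases are partly shared with other transcripts.

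In the base of the cap, the 6 ATPases all passed above 100 FPKM and lay close together. Psmc4 was the highest at 737, 835, 772, 844 and 825 FPKM (803 ± 45.8) and Psmc2 the lowest at 293, 319, 312, 368 and 329 FPKM (324 ± 27.9). They did not overlap, and the highest ATPase was 2.48 ± 0.119 times the lowest within a library. Psmc3 (755 ± 57.5 FPKM), Psmc1 (641 ± 58.5), Psmc5 (508 ± 31.9) and Psmc6 (387 ± 49.4) came between, in the same order in 5 of 5 libraries. The ranges of Psmc4 and Psmc3, of Psmc3 and Psmc1, and of Psmc6 and Psmc2 overlapped.

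The base subunits that are not ATPases stood lower. Psmd2, a scaffold that binds ubiquitin-like domains, was the highest at 359.9, 413, 360.2, 397 and 391 FPKM (384 ± 23.6), followed by Psmd1, the largest subunit (229.6 ± 22.1). Psmd4, a receptor for ubiquitin chains, was the lowest at 162, 159.7, 166, 153 and 156 FPKM (159.6 ± 4.94). The 3 ranges were separate. The ATPase median was above the median of these 3 by 1.31 ± 0.07 on the log2 scale, in each of the 5 libraries. Adrm1, the other main ubiquitin receptor of the base, was at 42.8, 35.2, 36.9, 29.3 and 31.4 FPKM (35.1 ± 5.24), lower than Psmd4 by 2.16 ± 0.17 on the log2 scale, in each of the 5 libraries, which is 4.61 ± 0.555 times in FPKM.

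The lid held both one of the highest and one of the lowest members. Psmd11, a lid subunit whose level is known to set proteasome assembly in human embryonic stem cells, was at 792, 885, 882, 1014 and 913 FPKM (897 ± 79.7). Psmd14, the enzyme that cuts ubiquitin from the substrate, followed at 435 ± 43.4 FPKM, then Psmd13 (393 ± 15.0), Psmd12 (235 ± 14.3), Psmd7 (223 ± 9.18), Psmd6 (205 ± 8.42) and Psmd8 (153 ± 6.61). The ranges of Psmd11 and Psmd14 were separate, while those of Psmd14 and Psmd13 overlapped, and those of Psmd12, Psmd7 and Psmd6 overlapped from one to the next. Shfm1, the small lid subunit whose symbol lies outside the naming rule, was at 159 ± 5.86 FPKM.

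Psmd3, a lid subunit needed for the particle, was far below every other core or cap subunit. It was at 4.44, 2.64, 4.06, 3.64 and 4.26 FPKM (3.81 ± 0.715), above 1 FPKM by 1.25 on the log2 scale (SE 0.10, limma adjusted p = 8.68e-06) and below 10 FPKM (limma adjusted p = 9.93e-06). All 5 libraries placed it there. Worked back from FPKM, this level implies about 134.8 to 200.9 reads each, so it does not rest on single reads. Such read numbers cannot show whether the estimate itself was right. A partly failed estimate for Psmd3 was not tested. The highest lid gene was 178 to 335 times the lowest within a library. Psmd3 (chromosome 11, 98682554 to 98695979, plus strand) overlaps no other gene of the table and shares no run of 75 bases with another transcript. Its longest coding transcript had the highest GC content of the 31 core and cap subunits (58.3%, in a range of 37.0% to 58.3%), with Psmb5 (56.6%) and Psmb6 (55.8%) close by, and Psmb6 was the highest of all. Across these 31 genes the Spearman correlation of the log2 level was -0.0956 with GC content and -0.215 with transcript length, as a description over genes that share libraries. The part of GC content in the level of Psmd3 was not tested.

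The parts of the particle differed in level. The median member was at 529 ± 46.1 FPKM in the core particle, 404 ± 40.6 in the base and 229 ± 11.3 in the lid. On the log2 scale the core median exceeded the base median by 0.39 ± 0.08 and the base exceeded the lid by 0.81 ± 0.10, each in 5 of 5 libraries. The base pools its ATPases with its other subunits, whose median was 230 ± 22.1 FPKM. The ATPase median alone, at 574 ± 44.9 FPKM, was above the core median in 5 of 5 libraries. The core exceeded the whole cap by 0.52 ± 0.06 in 5 of 5 libraries. These contrasts describe members that were grouped by role and carry no p.

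The activators, which open the barrel without the cap, divided into a higher and a lower pair. Psme2 was at 275, 299, 284, 322 and 260.0 FPKM (288 ± 23.6) and its partner Psme1, with which it forms a mixed ring induced by interferon, at 106, 134, 125, 122 and 122 FPKM (122 ± 10.4). Psme2 was above Psme1 by 2.37 ± 0.228 times in FPKM, in 5 of 5 libraries, although 51.7% of its runs of 75 bases are shared with Psme2b, itself at 4.95 ± 0.696 FPKM. Psme4, a nuclear activator linked to histone breakdown and DNA repair, was at 21.4, 20.6, 35.1, 28.9 and 30.7 FPKM (27.4 ± 6.21). Psme3, the nuclear relative of Psme1, was at 20.6, 16.9, 27.2, 22.1 and 26.8 FPKM (22.7 ± 4.34). Replicates 1 and 2 were low and replicate 3 high for both nuclear activators. Their ranges overlapped, yet Psme3 was below Psme4 in 5 of 5 libraries, by 0.25 ± 0.13 on the log2 scale. Psme3 was below Psme1 in 5 of 5 libraries, with a log2 difference of -2.39 ± 0.32. Psme1 and Psme2 belong to the genes raised by interferon together with Psmb8 to Psmb10, and here they passed above 100 FPKM while Psmb10 passed below it. The genes lie 5911 bases apart on chromosome 14.

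Psmf1, an inhibitor of the core particle, was at 73.0, 89.0, 72.4, 84.0 and 77.0 FPKM (79.1 ± 7.21), below 100 FPKM (limma adjusted p = 0.000387). Its 5 values lay between those of Psme1 and Psme4. The median activator was at 74.6 ± 6.44 FPKM, and the core median was higher in 5 of 5 libraries, by a log2 difference of 3.18 ± 0.13.

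The 4 Psmg chaperones, which leave the finished particle, had a median below that of the core particle, while Pomp, another chaperone of the core, stood at the level of its subunits. Psmg3 was at 114, 121, 124, 127 and 126 FPKM (122 ± 5.33) and Psmg4, with which it forms a pair on the alpha ring, at 36.1, 34.5, 29.9, 31.2 and 30.4 FPKM (32.4 ± 2.71). Psmg2 was at 106, 105, 115, 125 and 109 FPKM (112 ± 8.44) and its own partner Psmg1 at 31.3, 26.9, 35.9, 31.2 and 30.9 FPKM (31.2 ± 3.19). So each heterodimer had 1 gene above 100 FPKM and 1 far below it in every library. Psmg3 exceeded Psmg4 by 3.80 ± 0.450 times and Psmg2 exceeded Psmg1 by 3.61 ± 0.343 times in FPKM, each in 5 of 5 libraries. Pomp, which acts in the assembly of the core and is then degraded, was the highest of the proteasome's partners at 503, 542, 561, 593 and 528 FPKM (545 ± 33.7). Pomp stood in the range of the core subunits, 17.6 ± 1.93 times Psmg1. The core median was above that of the 4 Psmg genes by 3.08 ± 0.12 on the log2 scale, in each of the 5 libraries.

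The chaperones of the base had a median below that of the cap. Psmd5 was at 100.1, 107, 90.1, 80.1 and 93.1 FPKM (94.1 ± 10.2), Psmd10 (gankyrin) at 54.5, 61.5, 59.6, 64.6 and 63.2 FPKM (60.7 ± 3.91) and Psmd9 at 21.8, 22.8, 22.4, 22.2 and 22.01 FPKM (22.2 ± 0.396). Their ranges were separate. In replicate 4 Psmd5 was at its lowest and Psmd10 at its highest. The cap median was above the median of these 3 in every library, by a log2 difference of 2.58 ± 0.04.

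Genes that work with the proteasome but are no part of the naming rule were mostly of middle level. Of 20 listed partners 17 were matched by symbol, and all 17 passed above 1 FPKM, 14 above 10 FPKM and 4 above 100 FPKM, with a median of 25.2 FPKM. Of all tested genes 52.3%, 27.7% and 6.80% passed above these levels. Sem1 and Ecpas were present under their older symbols Shfm1 and AI314180, and Paaf1 was not analysed here. The lowest was Midn, which brings some nuclear proteins to the proteasome without ubiquitin, at 4.25, 4.38, 4.07, 4.41 and 3.74 FPKM (4.17 ± 0.276). Usp14, a deubiquitinase on the base, was at 170.0, 169.8, 199, 225 and 195 FPKM (192 ± 22.9), and Uchl5, the deubiquitinase held by Adrm1, at 52.9, 49.7, 53.4, 55.5 and 47.8 FPKM (51.9 ± 3.05). Their ranges were separate, with Usp14 3.70 ± 0.382 times Uchl5, in 5 of 5 libraries.

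The factors that control proteasome genes stood below the median proteasome gene. All 7 on the list passed above 1 FPKM, 3 passed above 10 FPKM and 7 below 100 FPKM, with a median of 7.68 FPKM. The shares of all tested genes were 52.3%, 27.7% and 92.0%. Nfe2l1 (Nrf1), which raises proteasome subunits when the proteasome is blocked, was at 7.53, 5.17, 6.80, 5.48 and 5.00 FPKM (5.997 ± 1.11). Nfe2l2 (Nrf2), the factor of the oxidative stress response, was at 22.02, 26.5, 25.6, 30.7 and 26.7 FPKM (26.3 ± 3.09). Nfe2l2 was above Nfe2l1 by 4.55 ± 1.152 times in FPKM in 5 of 5 libraries, with the smallest gap in replicate 1. The highest of the list was Nfyb, a subunit of the factor that binds CCAAT, at 71.2, 69.5, 69.1, 84.1 and 70.3 FPKM (72.8 ± 6.33). The lowest was Ngly1, the enzyme that processes Nfe2l1, at 3.62, 2.56, 3.15, 2.75 and 2.34 FPKM (2.88 ± 0.508).

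Ubiquitin itself came from very abundant transcripts. Of 6 genes, 5 passed above 100 FPKM (6.80% of all tested genes) and 1 below it (92.0% of all), and the median was 1412.5 FPKM. Ubb was the highest at 3869, 4696, 4069, 4292 and 4427 FPKM (4271 ± 319). Uba6, an enzyme that activates ubiquitin, was the lowest at 23.0, 25.4, 21.9, 27.4 and 22.5 FPKM (24.0 ± 2.31).

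Most proteasome genes peaked in the same library, and they varied between libraries about as much as other genes of their level. Among the 43 members whose mean reached 10 FPKM the median SD was 0.12 on the log2 scale, against 0.13 for the 5861 genes of that level. Replicate 4 held the highest value for 30 of the 43 (69.8%), where 37.7% of the 5861 genes peaked in it. Replicate 1 held the lowest value for 29 (67.4%), against 44.2% of the 5861 genes. The alpha ring showed the same pattern, with median log2 deviations from each gene's own mean of -0.17, -0.09, 0.04, 0.19 and 0.01 in replicates 1 to 5, where all genes of that level gave -0.09, 0.02, -0.01, 0.07 and 0.01. The chaperones of the base gave -0.03, 0.04, -0.02, 0.00 and -0.01. This is a median of 3 genes, and in replicate 4 Psmd5 was at its lowest while Psmd10 was at its highest.

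**Figure D5:**
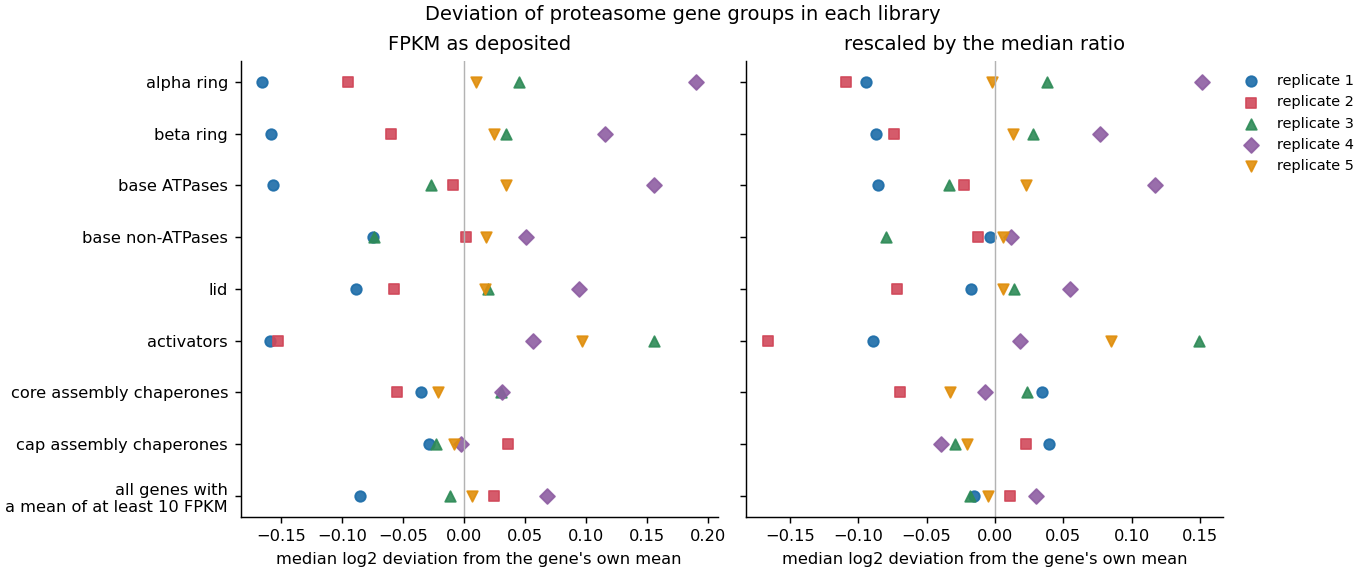
Median log2 deviation of role groups from their genes' own means in each of the 5 libraries, with FPKM as deposited (left) and after scaling by the median ratio of all genes (right). The bottom line of symbols is for all 5861 genes whose mean reached 10 FPKM. The scaling to the same FPKM sum is not drawn. With FPKM as deposited the alpha ring reaches 0.19 in replicate 4 and -0.17 in replicate 1. The median of the chaperones of the base stays between -0.03 and 0.04, though single genes of that group move more.

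The size of this pattern depended on the scaling. After scaling by the median ratio of all genes, replicate 4 was the highest for 26 members (60.5%, against 29.7% of all) and replicate 1 the lowest for 19 (44.2%, against 25.8%). After scaling each library to the same FPKM sum, replicate 4 was the highest for 17 (39.5%, against 17.7%) and replicate 1 the lowest for 13 (30.2%, against 21.1%), while replicate 2 was the lowest for 17 (39.5%, against 18.5%). Replicate 4 had the highest FPKM sum and implied read total, and replicate 1 the lowest FPKM sum and the lowest summed level of mesenchymal markers (32.2 FPKM, against 60.1 to 126 in the others). Their part in the pattern was not tested.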

How the data were processed

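RNA from 5 libraries of purified mouse neuroepithelial cells was measured. Per the labels' protocols, cDNA was primed at the poly-A tail, amplified, sheared and sequenced without molecular identifiers, so PCR copies were not told from molecules and amplification can favour some genes over others. The authors deposited 1 table of FPKM per gene and library. TopHat2 2.0.11, Cuffdiff 2.2.1, cutadapt and CASAVA 1.8 were used with mm10, per the submitters' processing notes, which state neither roles nor order. The annotation release and the handling of reads with several matches were not given in the sources used here. The values are not counts, and the implied depth was read from the steps between values up to 0.15 FPKM. Read numbers of single genes were worked back from FPKM, this depth and the longest coding transcript less 200 bases.

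Levels were tested with limma 3.58.1 in R 4.3.3 on log2(FPKM + 1), a scale that understates differences of low genes, with a variance trend, two-sided, over 19706 genes above 0 in at least 1 library, after a test on simulated data. Role groups were compared by their medians within each library, with no p, and 14 gene pairs by exact sign-flip permutation. Coordinates came from GENCODE M21 (GRCm38, the build mm10), which matched all 48 members by gene identifier, and windows before start sites from RefSeq (GRCm38.p6). The members, lists and tests were chosen with earlier results of these data known. Values in every library are given for the highest and lowest member of each role group, for all immunoproteasome, thymus, testis and activator subunits, for both genes of each pair, and for the highest and lowest gene of each other list; values of some further genes were added after they were seen. Alternatives were other pseudocounts (0.5 and 0.1), a mean filter of 0.1 FPKM, no filter, 2 rescalings, the mean in place of the median, and each library left out. The level tests were also run without the variance trend and with limma's robust variance. One gene of the antigen presentation and interferon list is not reported here.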

Additional observations from a re-analysis of the deposited data

Results flagged for a closer look

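Psmd13, a subunit of the lid, had 1 library apart from the others in FPKM as deposited. Replicate 4 was at 419 FPKM, against 382 to 391 FPKM in the other 4, a gap of 0.756 of the whole range, past Dixon's critical value of 0.71 for 5 samples. It was the 1 set past that value among the 71 sets of 5 values examined, and chance alone passes about 1 in 20. With FPKM as deposited, replicate 4 had the highest sum and held the highest value for 30 of 43 members whose mean reached 10 FPKM. The SD of Psmd13 was only 3.83% of its mean, and no gap after rescaling is given here. Psmd13 overlaps Sirt3 on the opposite strand.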

How the results depend on the processing

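The count of members above 1 FPKM was 44 under every alternative run, above 10 FPKM it was 42 to 43 and above 100 FPKM 33 to 35. The 98 alternative values of the gene pairs came from other pseudocounts and left-out libraries. They could not change direction, because each pair had the same sign in 5 of 5 libraries, so they say nothing about robustness. With a mean filter of 0.1 FPKM the count of all genes below 1 FPKM fell from 8167 to 3495 and below 10 FPKM from 13480 to 8800. Scaling each library to a sum of 1000000 FPKM raised all genes by 0.24 to 0.42 on the log2 scale and moved the group medians to 634 (alpha ring), 706 (noncatalytic beta), 532 (catalytic beta), 718 (base ATPases), 287.2 (other base), 286.8 (lid), 93.4 (activators), 99.0 (inhibitor), 91.4 (core chaperones) and 75.9 FPKM (base chaperones). It left 17 members highest in replicate 4 and 13 lowest in replicate 1, and the median ratio left 19 lowest in replicate 1. The mean over members in place of the median gave 595 (alpha ring), 470.1 (noncatalytic beta), 559 (catalytic beta), 4.01 (immunoproteasome), 258 (other base), 318 (lid) and 115 FPKM (activators). With means the log2 contrasts were 0.52 for alpha minus beta ring and -0.073 for noncatalytic minus catalytic, both reversed, and 7.35 for catalytic minus immunoproteasome, 0.21 for core minus base, 1.18 for base minus lid, 1.16 for ATPases minus other base, 2.94 for core minus its chaperones, 2.45 for cap minus its chaperones, 0.77 for core minus cap and 2.79 for core minus activators. The mean weighs the highest and lowest members, such as Psmb6 and Psmd3, more than the median does. The catalytic minus immunoproteasome contrast was 9.12 and 10.27 with pseudocounts of 0.5 and 0.1, and 5.06 over members of at least 1 FPKM. Without Psmd3, an alternative chosen after seeing the data, cap minus its chaperones was 2.62. Group medians and contrasts were also taken with each library left out, and a move was counted when it passed the SD. Leaving out 1 of 5 values cannot move a mean that far, so these runs decide nothing about single libraries. Differences below about 1 read were not detectable at this depth. No read number was worked out for Tap2, whose levels rest on very few reads. No paired analysis was possible because the labels give 1 group, so no replicate numbers are shared between groups; the comparisons between genes were made within each library.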
